A study of Mus musculus with 2 samples.

Results

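Dbp, Tef, Hlf, Nfil3, Bhlhe40, Bhlhe41 and Ciart encode regulators of transcription that lie directly downstream of the circadian clock, and their RNA was measured in mouse hippocampus. The genes were chosen by name: each symbol in the transcript tables was joined to the gene tables by gene identifier, which found 7 of 7, among 55536 annotated genes. Total RNA came from hippocampus (labelled as a layer of it) of female B6CASTF1/J mice aged 2 months, first-generation hybrids of C57BL/6J and the wild-derived strain CAST/EiJ. The 2 libraries, replicates 1 and 2, were each made from 300 ng of RNA with ERCC spike-in RNAs added, and they belong to 1 group with no treatment and no contrast of conditions. The labels call them biological replicates and give each its own tissue record, but both share 1 donor record, so part of the spread between them may be technical. They give no time of day at which the tissue was taken. Reads of both parental copies were counted together, and in whole tissue more cells of a type and more RNA per cell cannot be told apart.

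In the circadian clock, the proteins CLOCK and BMAL1 bind DNA motifs called E-boxes and drive genes whose products later repress them. DBP, TEF and HLF are the PAR bZIP proteins, named for a region rich in proline and acidic amino acids beside a basic leucine zipper, and they activate genes through motifs called D-boxes. NFIL3 (also E4BP4) binds the same D-boxes as a repressor. BHLHE40 and BHLHE41 (DEC1 and DEC2) are basic helix-loop-helix repressors that compete at E-boxes, and CIART (CHRONO) represses through BMAL1. RNA of several of these genes rises and falls over the day in many tissues, most strongly that of Dbp in liver. In brain, mice without the 3 PAR bZIP genes are known for low pyridoxal phosphate and seizures.

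The relation between the PAR bZIP genes can be read from their last coding exons, which encode the conserved end of each protein and have the same length, 213 bases, in all 3. The mm10 positions are chr7:45709665-45709877 (+ strand) for Dbp, chr15:81823466-81823678 (+ strand) for Tef and chr11:90340762-90340974 (- strand) for Hlf. Capitals mark bases that are identical in all 3, read 5′ to 3′ from the transcript sequences of the M21 annotation.
Dbp: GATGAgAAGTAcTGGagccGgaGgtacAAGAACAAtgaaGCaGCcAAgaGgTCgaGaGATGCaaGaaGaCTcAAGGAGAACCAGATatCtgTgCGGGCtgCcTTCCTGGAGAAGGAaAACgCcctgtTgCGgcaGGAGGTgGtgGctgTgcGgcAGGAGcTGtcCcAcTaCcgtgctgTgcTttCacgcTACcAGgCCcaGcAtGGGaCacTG
Tef: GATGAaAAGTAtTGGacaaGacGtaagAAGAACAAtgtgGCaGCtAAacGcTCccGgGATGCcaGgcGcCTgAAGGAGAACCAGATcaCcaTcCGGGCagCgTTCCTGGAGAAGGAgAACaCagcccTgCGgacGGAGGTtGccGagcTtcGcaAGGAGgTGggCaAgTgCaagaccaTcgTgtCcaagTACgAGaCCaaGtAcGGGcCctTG
Hlf: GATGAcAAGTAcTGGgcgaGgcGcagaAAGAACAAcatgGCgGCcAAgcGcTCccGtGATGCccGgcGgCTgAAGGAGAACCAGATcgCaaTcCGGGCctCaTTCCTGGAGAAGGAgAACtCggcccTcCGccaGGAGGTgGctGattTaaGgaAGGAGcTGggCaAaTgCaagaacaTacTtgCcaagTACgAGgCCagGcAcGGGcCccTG
The same base stood at 124 of 213 positions (58.2%) in all 3 genes. Tef and Hlf shared 78.9% of positions, Dbp and Hlf 65.3% and Dbp and Tef 64.3%, and the longest stretch common to all 3 was 14 bases. Nfil3 has its whole coding sequence in 1 exon and was not lined up with them.

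Bhlhe40 and Bhlhe41 share coding exon 3, of 108 bases, at chr6:108661505-108661612 (+ strand) and chr6:145864576-145864683 (- strand), both on mouse chromosome 6. Capitals mark bases identical in both.
Bhlhe40: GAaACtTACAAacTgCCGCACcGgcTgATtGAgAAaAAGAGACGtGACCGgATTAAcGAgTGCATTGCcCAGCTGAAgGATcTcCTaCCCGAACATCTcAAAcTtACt
Bhlhe41: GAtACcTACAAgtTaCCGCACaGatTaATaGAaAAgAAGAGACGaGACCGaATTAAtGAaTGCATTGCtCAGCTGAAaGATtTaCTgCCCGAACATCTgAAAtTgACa
The same base stood at 83 of 108 positions (76.9%), with a longest common stretch of 11 bases. No stretch of 31 bases was common to the transcripts of any 2 of the 7 genes.

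All 7 genes were present in both libraries, over a 27.4-fold range of levels. Tef was the highest and Ciart the lowest, and the order was Tef, Bhlhe40, Hlf, Dbp, Bhlhe41, Nfil3, Ciart in each library. Levels are given in TPM, a level per transcript length set to the same total in each library, with the authors' 95% interval for each library where it bears on a comparison. Together the 7 genes summed to 242 TPM in replicate 1 and 238 TPM in replicate 2. The PAR bZIP genes made up 70.6% ± 0.0714 of that sum (SD, n = 2).

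Tef, the thyrotroph embryonic factor, lies on chromosome 15 (81802421 to 81826863, + strand, mm10; ENSMUSG00000022389.15). Its level was 112 TPM in replicate 1 and 107 TPM in replicate 2, or 109.6 ± 3.95 TPM (SD, n = 2), above 97.0% of nuclear protein-coding genes. The direction depended on the measure: its expected count was the lower in replicate 1, at 7499 against 8104, while its TPM was the higher there. The authors' intervals, 104 to 117 TPM and 99.7 to 111 TPM, overlapped. Tef alone took 64.7% ± 1.66 of the PAR bZIP sum.

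Hlf, the hepatic leukemia factor, lies on chromosome 11 (90336536 to 90390895, - strand; ENSMUSG00000003949.16). Its level was 33.8 TPM in replicate 1 and 34.2 TPM in replicate 2 (34.0 ± 0.325; SD, n = 2), from 3452 and 3688 counts. Dbp, the D-box binding protein, lies on chromosome 7 (45705088 to 45710203, + strand; ENSMUSG00000059824.12). Its level was 24.4 TPM in replicate 1 and 27.0 TPM in replicate 2 (25.7 ± 1.86), from 865 and 950 counts. Dbp was thus the lowest of the 3 activators in each library, and Hlf was close to it. Within each library Tef exceeded Hlf by 1.69 ± 0.07 on the log2 scale (SD, n = 2; 3.22-fold) and Dbp by 2.09 ± 0.16 (4.27-fold). Hlf exceeded Dbp by 0.41 ± 0.09, or 1.33-fold.

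Nfil3, the repressor at D-boxes, lies on chromosome 13 (52967209 to 52981073, - strand; ENSMUSG00000056749.7). Its level was 6.81 TPM in replicate 1 and 5.76 TPM in replicate 2 (6.29 ± 0.742; SD, n = 2), from 285 and 251 counts. Nfil3 was lower in replicate 2, and of the 7 genes it had the largest ratio between the libraries. Each PAR bZIP activator lay above it in both libraries. The log2 ratio to Nfil3 was 4.13 ± 0.12 for Tef (17.5-fold), 2.44 ± 0.18 for Hlf (5.43-fold) and 2.04 ± 0.28 for Dbp (4.10-fold). For the summed PAR bZIP level it was 4.76 ± 0.16, or 27.0-fold. These are ratios of RNA levels, and protein was not measured.

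Bhlhe40 lies on chromosome 6 (108660629 to 108666925, + strand; ENSMUSG00000030103.11). Its level was 42.6 TPM in replicate 1 and 42.1 TPM in replicate 2 (42.4 ± 0.361; SD, n = 2), from 2287 and 2245 counts, which made this repressor the second highest of the 7 genes. Bhlhe41 lies on the same chromosome (145858243 to 145865558, - strand; ENSMUSG00000030256.11). Its level was 17.6 TPM in replicate 1 and 18.4 TPM in replicate 2 (18.0 ± 0.559), from 1384 and 1516 counts. Bhlhe40 exceeded Bhlhe41 in both libraries, by 1.24 ± 0.06 on the log2 scale or 2.35-fold.

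Ciart, the CLOCK-BMAL1 repressor CHRONO, lies on chromosome 3 (95878503 to 95882251, - strand; ENSMUSG00000038550.10). Its level was 3.97 TPM in replicate 1 and 4.04 TPM in replicate 2 (4.01 ± 0.0495; SD, n = 2), from 110 and 118 counts, above 51.9% of protein-coding genes. It was the least certain of the 7 levels, since the authors' intervals ran from 3.62 to 5.94 TPM and from 3.78 to 6.32 TPM, with the point value near the lower end of each. In both libraries it overlapped the interval of Nfil3, which ran from 5.85 to 7.38 TPM and from 4.94 to 6.32 TPM. Ciart shares sequence with Gm9176, a processed pseudogene on chromosome 10 (128549694 to 128550813): 96 of its 2428 stretches of 100 bases (3.95%) and 20.8% of its stretches of 31 bases were also found there. Gm9176 was listed at 0 counts in both libraries, and how reads common to both were divided was not tested. Ciart lay below Dbp by 2.68 ± 0.09 on the log2 scale, or 6.41-fold.

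**Figure D1:**
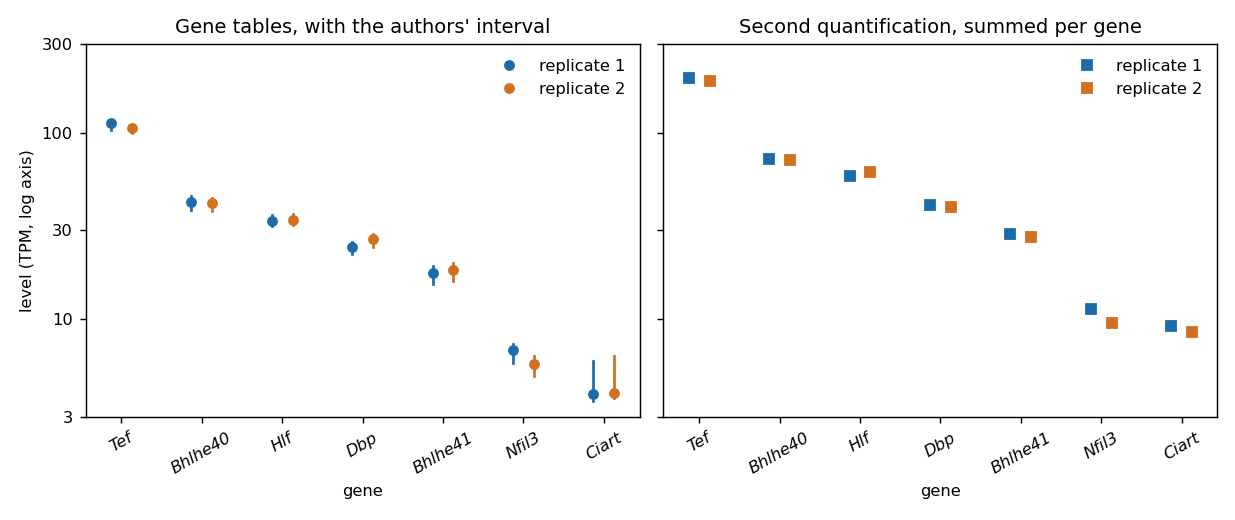
Level of each gene in TPM (log axis) in replicates 1 and 2, from the gene tables with the authors' 95% interval as a line (left) and from the second quantification, summed per gene (right). Tef stands alone at the top, the 4 next genes step down from 42.4 to 18.0 TPM on the left, and Nfil3 and Ciart lie lowest with Ciart's interval reaching up to that of Nfil3.

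Neighbours in this order were set against the spread between libraries, calling a ratio larger than the spread when its mean passed 3 SD. With 2 libraries no permutation test can reach 0.05, so this is a description with no p-value, and an SD from 2 values can be small by chance. All 6 neighbouring steps passed 3 SD in the gene tables: Tef over Bhlhe40 was 1.37 ± 0.04 on the log2 scale, Bhlhe40 over Hlf 0.32 ± 0.03, Hlf over Dbp 0.41 ± 0.09 and Dbp over Bhlhe41 0.51 ± 0.06. The last 2 steps were Bhlhe41 over Nfil3 at 1.52 ± 0.22 and Nfil3 over Ciart at 0.65 ± 0.19. From expected counts per base of the leading transcript, Bhlhe41 over Nfil3 was 0.84, a smaller step. The order of Nfil3 and Ciart was the least firm. In the second quantification, a separate transcript table by the authors, Nfil3 over Ciart was 0.22 ± 0.11 and did not pass 3 SD. That table put Nfil3 at 11.3 and 9.49 TPM and Ciart at 9.22 and 8.57 TPM in replicates 1 and 2, so the lower Nfil3 library lay close to the higher Ciart library.

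The second quantification kept the same order of all 7 genes. Its values were 1.56 to 2.22 times those of the gene tables for these genes, Ciart having the largest ratio, beside a median of 1.71 over protein-coding genes at 1 TPM or more. Protein-coding genes took 40.5% and 40.3% of all TPM in the gene tables of replicates 1 and 2, and 72.9% and 72.5% in the second quantification, so TPM values of the 2 tables are on different scales and only ratios are comparable. The Dbp level went in opposite directions: 24.4 and 27.0 TPM in the gene tables, and 41.0 and 39.8 TPM in the second quantification, for replicates 1 and 2. The same held for Bhlhe41, at 17.6 and 18.4 TPM in the gene tables and 28.7 and 27.6 TPM in the second quantification. It also held for Ciart, at 3.97 and 4.04 TPM, then 9.22 and 8.57 TPM. Counts of Dbp were higher in replicate 2 in both, at 880 and 949 in the second.

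**Figure D2:**
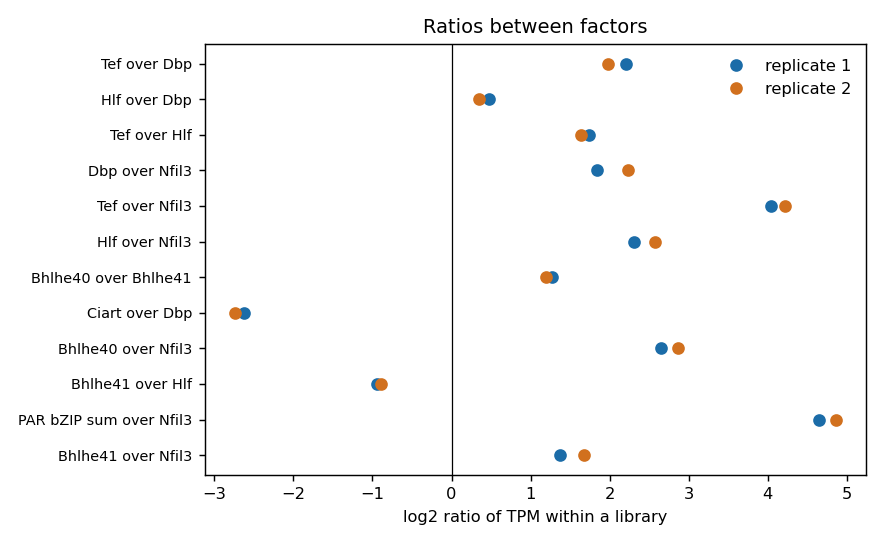
Log2 ratio of TPM between pairs of the 7 genes within each library, from the gene tables, with 1 point for each replicate. The sum of the PAR bZIP genes over Nfil3 lies highest (4.76 ± 0.16), Ciart over Dbp lowest (-2.68 ± 0.09), and both libraries give the same sign for all 12 pairs.

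The transcripts behind these levels were next examined. The annotation lists 35 transcripts for the 7 genes, 20 of them protein-coding, and shares are of each gene's TPM in the transcript tables that share the gene tables' layout, the first quantification. The main coding forms of Tef begin at starts that lie 8993 bases apart. Each has its own first coding exon, so the encoded proteins differ in their N-terminal segment. The exons are at chr15:81802784-81802886 for Tef-202 (103 bases) and chr15:81811570-81811720 for Tef-201 (151 bases), both + strand, and they are shown because they alone tell the 2 coding forms apart. Capitals mark the start codon, and the other 3 coding exons are common to both forms.
Tef-202: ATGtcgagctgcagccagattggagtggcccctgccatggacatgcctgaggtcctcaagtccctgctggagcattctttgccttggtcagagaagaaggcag
Tef-201: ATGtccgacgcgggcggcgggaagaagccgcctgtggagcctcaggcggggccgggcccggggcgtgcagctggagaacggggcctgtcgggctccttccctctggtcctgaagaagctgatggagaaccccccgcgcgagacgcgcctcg
Tef-202 took 40.2% of Tef TPM in replicate 1 and 47.6% in replicate 2, and Tef-201 took 25.7% and 25.9%. The distal form was the higher in both libraries, 1.56 and 1.84 times Tef-201, and 1.96 times it in both libraries of the second quantification. All 5 transcripts that begin at the Tef-202 exon took 58.2% ± 5.47 (SD, n = 2), or 65.2% ± 2.84 of the counts, which weigh long transcripts more. The 4 transcripts with other starts took 20.0% of TPM in replicate 1 and 12.1% in replicate 2, and 2.75% ± 0.996 of the counts.

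The other named Tef transcripts were short or incomplete. Of the retained-intron forms, which keep an intron in the RNA, Tef-207 took 10.5% in replicate 1 and 7.46% in replicate 2 and Tef-203 took 8.77% and 8.41%. Tef-206, a short coding transcript of 477 bases, took 8.00% and 3.99%. Since these short transcripts weigh more in TPM than in counts, their smaller shares in replicate 2 stand beside the lower Tef TPM and higher Tef count there. Whether that mixture sets the opposite directions was not tested.

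Hlf and Bhlhe40 were each carried mainly by a full-length form. Hlf-201 took 81.0% of Hlf TPM in replicate 1 and 82.7% in replicate 2, and the short coding transcript Hlf-206 9.83% and 8.06%. The non-coding form Hlf-204 took 4.76% ± 1.16, while Hlf-203 took 0.651% ± 0.921 in the first quantification and 15.2% ± 2.13 in the second quantification (SD, n = 2). For Bhlhe40, Bhlhe40-201 took 76.4% and 71.5%, and the short coding transcript Bhlhe40-202, of 476 bases, took 16.9% and 20.4% of TPM but 2.92% of the counts. The retained-intron form Bhlhe40-203 took 3.14% ± 0.460, and 5.73% ± 0.0441 in the second quantification.

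Dbp-201, the full coding form with 4 coding exons, took 72.8% of Dbp TPM in replicate 1 and 64.1% in replicate 2. Dbp-204, a shorter coding form, took 3.85% and 14.8%, so the libraries differed more in this form than in the sum of coding forms (76.7% and 79.5%). In the second quantification Dbp-204 took 0.535% ± 0.757 (SD, n = 2), and its level is therefore uncertain. The retained-intron transcripts Dbp-205 and Dbp-202 took 15.9% ± 2.22 and 6.00% ± 0.198. Retained introns made up 21.9% ± 2.02 of Dbp TPM and 17.6% ± 2.42 of Tef TPM, beside 7.40% ± 0.979 for Bhlhe40 and 5.79% ± 0.651 for Bhlhe41. By counts they made up 18.9% for Dbp, 7.64% for Tef, 4.81% for Bhlhe40 and 0.942% for Bhlhe41. In the second quantification their share of TPM was 21.9% ± 5.53 for Dbp and 26.9% ± 0.560 for Tef, so the order of these 2 genes depended on the quantification. Nfil3, Ciart and Hlf have no annotated retained-intron transcript. Whether reads of RNA not yet spliced were assigned to the retained-intron forms was not tested.

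Bhlhe41-201 took 55.3% of Bhlhe41 TPM in replicate 1 and 55.7% in replicate 2, and Bhlhe41-202, of 744 bases, took 38.5% and 39.0%. By counts the split was 92.2% for Bhlhe41-201 and 6.88% for Bhlhe41-202. The single-exon retained-intron form Bhlhe41-203 took 5.79% ± 0.651 of TPM (SD, n = 2). Nfil3 has 1 annotated transcript, Nfil3-201, with its whole coding sequence in 1 exon. Ciart-201 took 76.8% in replicate 1 and 72.8% in replicate 2, Ciart-202 12.1% and 15.6%, and Ciart-205 11.1% and 11.6%.

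The leading transcript was the same in both libraries for 7 of 7 genes in the first quantification, and the second quantification gave the same leader for 6 of 7. The exception was Ciart, where Ciart-201 took 25.7% ± 4.10 and Ciart-202 26.1% ± 6.14 in the second quantification (SD, n = 2). There Ciart-206 took 17.8% ± 7.02, Ciart-205 15.5% ± 3.16 and Ciart-204 14.95% ± 8.13, although Ciart-204 and Ciart-206 were listed at 0 counts in the first. With 110 to 122 counts for the whole gene, Ciart's isoforms were not resolved.

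**Figure D3:**
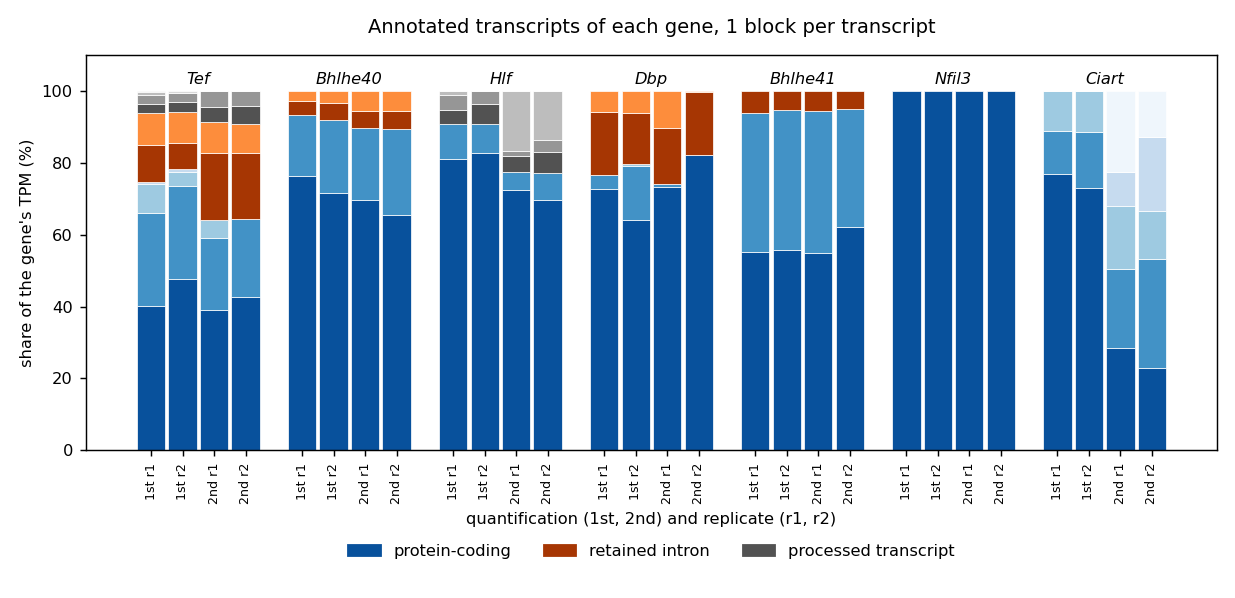
Share of each gene's TPM (%) held by its annotated transcripts, 1 block per transcript, coloured by annotated type, in the 1st quantification (transcript tables in the layout of the gene tables) and the 2nd, for replicates r1 and r2. In both quantifications Dbp and Tef carry the widest retained-intron blocks, and Ciart is split among more coding transcripts in the 2nd quantification than in the 1st.

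Several of these genes overlap genes on the opposite strand, and the strand used in counting is not stated. For Dbp, 539 of 2993 exonic bases (18.0%) overlap Sphk2, which encodes a sphingosine kinase and stood at 14.5 and 14.0 TPM in replicates 1 and 2. For Bhlhe41, 1280 of 6720 exonic bases (19.1%) overlap Gm43909, at 0.54 and 0.47 TPM. The overlaps of Tef with Gm17597 (2.45% of exonic bases; 1.00 and 0.61 TPM) and of Bhlhe40 with 0610040F04Rik (2.51%; 0.44 and 0.36 TPM) are short. Ciart lies inside C920021L13Rik with no common exonic base, and Hlf and Nfil3 overlap no gene. In the second quantification Gm17597 stood at 1.81 and 1.12 TPM and 0610040F04Rik at 2.06 and 2.63 TPM. Sphk2 was the highest of these overlapping genes in both quantifications, and the Dbp level is uncertain to the extent that reads of Sphk2 were counted to it.

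None of the 7 genes differed between the libraries by 1 or more on the log2 scale of scaled counts. Of the 15509 genes that averaged at least 1 CPM (counts set to a common library size), 82 did, or 0.529%. At 0.5 on the log2 scale it was again 0 of 7, beside 4.06% of all genes, and the authors' TPM intervals separated the libraries for 0 of 7, beside 4.38%. Beside such low background shares, a count of 0 of 7 sets these genes apart from no others. The log2 ratio of replicate 2 over replicate 1 was 0.08 for Dbp, 0.07 for Bhlhe41, 0.05 for Tef, 0.04 for Ciart, 0.04 for Hlf, -0.09 for Bhlhe40 and -0.24 for Nfil3. Thus 5 genes were slightly higher in replicate 2 and 2 in replicate 1, with a median of 0.04 beside -0.003 over all genes tested. The median size was 0.07, beside 0.08 over all genes. Nfil3 differed most, and 15.3% of tested genes had a ratio at least as large.

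**Figure D4:**
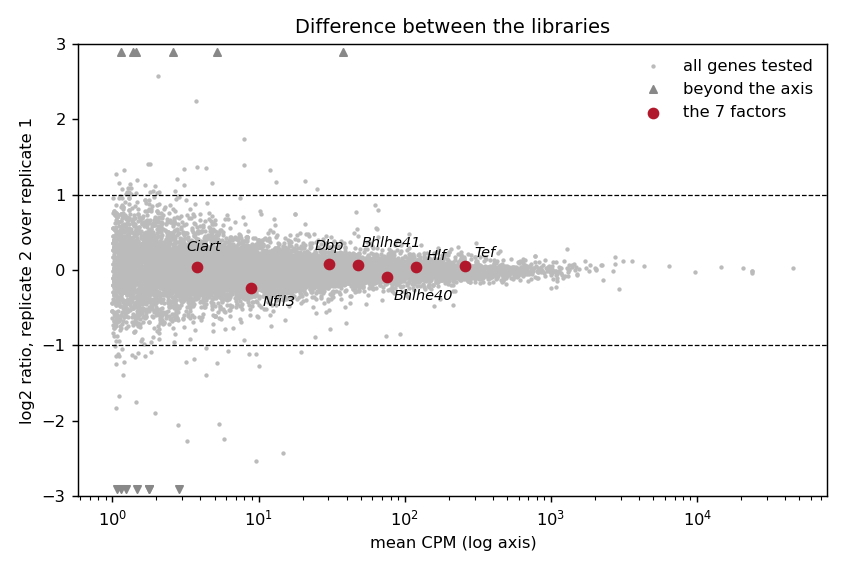
Log2 ratio of replicate 2 over replicate 1 against mean CPM (log axis) for all 15509 genes tested (grey) and the 7 genes (red), with dashed lines at -1 and 1 and triangles at the edge for genes beyond 3 in either direction. The 7 genes lie inside the grey band, Nfil3 lowest at -0.24.

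Sequence around the RefSeq starts of the genes was searched for the motifs the clock uses. The windows held 300 bases, 250 before to 50 after a RefSeq start (GRCm38.p6, the assembly of mm10). There were 7 windows for 6 of the genes, Tef having 1 at each RefSeq start. Both strands were searched for the E-box (CACGTG), a related E-prime box (CACGTT), the D-box (TTACGTAA, TTATGTAA or TTATATAA), the cyclic AMP response element (TGACGTCA) and the ROR element. No matches overlapped each other, and a motif that reads the same on both strands was counted once. An E-box was found in 4 of the 7 windows, those of Ciart, Bhlhe41 and both Tef starts, beside 7.15% of 32851 windows. A match describes letters and not a bound site, and nothing in these libraries measures binding.

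Ciart, the lowest of the 7 genes, held 3 E-boxes, at 116, 58 and 44 bases before its RefSeq start, beside 29 of 32851 windows (0.0883%) with 3 or more. The stretch chr3:95882252-95882478 (- strand) is shown with the E-boxes in capitals. It holds no annotated exon of Ciart and ends just before the start of the annotated gene.
Ciart: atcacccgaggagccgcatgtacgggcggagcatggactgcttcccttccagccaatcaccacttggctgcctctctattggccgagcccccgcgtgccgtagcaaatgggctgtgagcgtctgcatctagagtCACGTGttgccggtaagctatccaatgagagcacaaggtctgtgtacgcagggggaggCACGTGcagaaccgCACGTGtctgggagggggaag
The E-boxes of Tef lay 127 bases before the distal RefSeq start and 138 bases before the proximal RefSeq start. The distal E-box lies downstream of the annotated start of Tef-202, inside its first exon. The proximal promoter, chr15:81811164-81811413 (+ strand), lies in the intron that follows the Tef-202 exon, and its E-box is in capitals.
Tef-201 promoter: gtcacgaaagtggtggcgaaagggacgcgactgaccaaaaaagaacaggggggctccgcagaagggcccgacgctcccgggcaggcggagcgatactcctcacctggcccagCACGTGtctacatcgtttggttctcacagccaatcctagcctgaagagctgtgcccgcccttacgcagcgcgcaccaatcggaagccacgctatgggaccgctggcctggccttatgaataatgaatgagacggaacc
For the distal Tef start, whose window lies within the annotated Tef-202 exon, only the motif with 12 bases on each side is shown. The same was done for Bhlhe41, with its E-box 153 bases before the RefSeq start.
Tef-202, around 81802546 to 81802551 on chromosome 15: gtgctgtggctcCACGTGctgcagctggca
Bhlhe41, around 145865568 to 145865573 on chromosome 6: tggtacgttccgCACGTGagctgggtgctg
Hlf held no E-box in its window and 1 cyclic AMP response element, 9 bases before its start, beside 1.79% of windows. No E-prime box, D-box or ROR element was found in any of the 7 windows, beside 4.68%, 1.59% and 0.384% of all windows. The windows of Dbp and Nfil3 held none of the motifs, which says only that these letters are not in these 300 bases.

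The genes that drive or oppose these factors were read from lists chosen with earlier results known. Of 13 core clock genes 12 were detected (1 TPM or more in both libraries), with a median of 14.6 ± 0.834 TPM (SD, n = 2), beside 25.7 TPM for the 7 factors. They were led by the repressor Cry2 at 40.4 ± 0.841, the nuclear receptor Nr1d1 at 37.0 ± 0.792 and the repressor Per1 at 33.9 ± 4.63. Tef lay above each of the 12 detected genes in both quantifications. Of the 12 above the CPM minimum, 0 differed by 1 or more on the log2 scale (0.529% of all genes tested), and the intervals of 2 did not overlap (4.38% of all genes tested). These were Per1, at 30.6 and 37.2 TPM in replicates 1 and 2, and Per3, at 9.65 and 13.9 TPM, chosen for naming after its values were seen.

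All 14 clock modifiers, kinases, ubiquitin ligases and cofactors of the clock proteins, were detected. Their median was 37.9 ± 0.619 TPM (SD, n = 2). The splicing factor Sfpq (120 ± 0.820) led, followed by the kinase gene Gsk3b (60.3 ± 1.39) and the ubiquitin ligase gene Fbxw11 (56.0 ± 1.25). Sfpq was the only one of these above Tef.

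Relatives by family spanned a wide range, and some lay above members of the 7. Of 9 measured C/EBP and related bZIP genes 6 were detected (6.97 ± 0.0849 TPM in the median; SD, n = 2). The highest were the stress factor Atf4 (35.5 ± 1.90), Cebpg (13.1 ± 0.438) and Atf5 (11.9 ± 0.325). Each of the 9 lay below Tef, but Atf4 lay close to Hlf and above Dbp (25.7 TPM). The median of the list lay above Nfil3 (6.29 TPM). Of 10 Hes and Hey genes, the bHLH repressors most like Bhlhe40 and Bhlhe41, 6 were detected, with a median of 2.01 ± 0.0424 TPM. Hey1 (20.5 ± 1.99), Hes5 (11.3 ± 2.31) and Hes1 (10.9 ± 2.55) led, so Bhlhe40 lay above all 10 and Bhlhe41 below Hey1 alone. Of 10 class I and partner bHLH genes 9 were detected (median 21.6 ± 1.55 TPM), with Tcf4 at 249 ± 13.2, above Tef, and the E-box binders Usf2 and Usf1 at 51.5 ± 1.08 and 48.7 ± 0.622. Usf2 and Usf1 also lay above Bhlhe40 (42.4 TPM). The intervals of Tcf4 did not overlap between libraries. Tcf4 was the only member of these 3 lists for which that held.

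Of 11 textbook targets of the PAR bZIP proteins 6 were detected, and the 5 that were not are best known as liver genes. The detected targets were led by Alas1, the first enzyme of haem synthesis, at 56.7 ± 4.65 TPM, Por, the electron donor of cytochromes P450, at 42.3 ± 1.94, and Pdxk, the pyridoxal kinase, at 37.1 ± 0.361 (SD, n = 2). Cyp7a1, the rate-limiting enzyme of bile acid synthesis, and the carboxylesterase gene Ces2e had no count in either library; the upper limit for 0 counts is 3 counts, or 0.102 CPM in replicate 1 and 0.0977 CPM in replicate 2, for counting error alone. The other 3 undetected targets averaged 0.14 TPM or less. Among the detected targets 0 of 6 differed by 1 or more on the log2 scale, beside 0.529% of all genes, and the intervals of 2 did not overlap, beside 4.38%: Per1, given above, and Tsc22d3, a glucocorticoid-induced leucine zipper gene, at 28.0 and 39.6 TPM, named after its values were seen. With 1 group, whether the targets follow the factors cannot be measured.

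**Figure D5:**
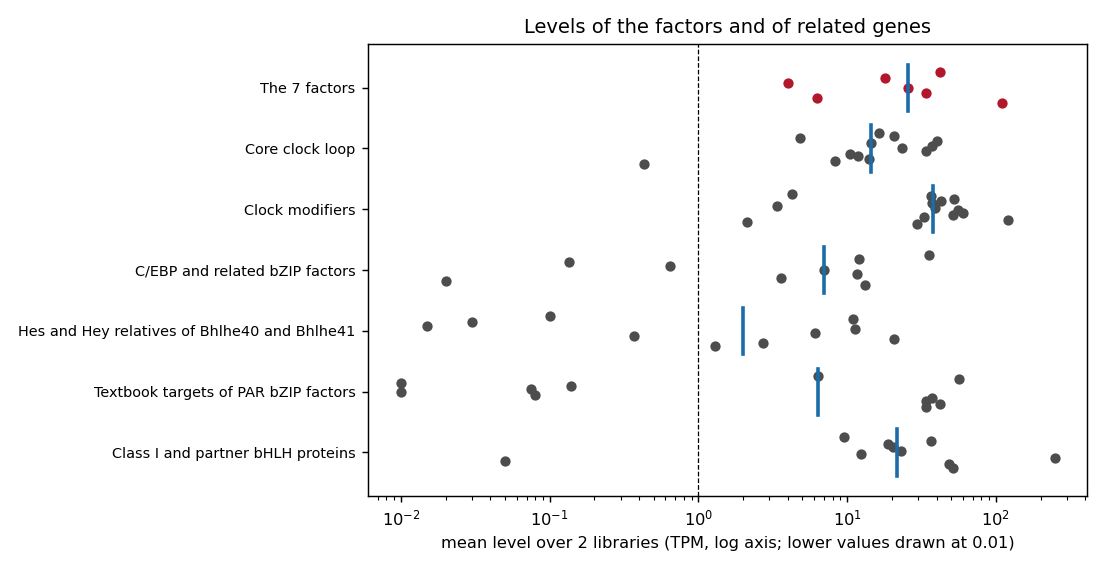
Mean level over both libraries (TPM, log axis) of the 7 factors (red) and of the genes of each list (grey), with the list's median as a blue bar and the detection minimum of 1 TPM dashed; values under 0.01 TPM are drawn at 0.01. The 7 factors lie between 4.01 and 109.6 TPM, and their relatives among the C/EBP, Hes and Hey genes reach below 1 TPM.

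Replicate 1 held 29490900 expected counts on annotated genes and replicate 2 held 30691917, and the spread between them, edgeR's biological coefficient of variation, was 4.86% over 17782 genes. Markers of the labelled tissue were present: 9 of 9 hippocampal and neuronal, 4 of 4 astrocyte, 4 of 4 oligodendrocyte, 4 of 4 microglial and 3 of 3 endothelial genes were detected. Markers of the suprachiasmatic nucleus, the brain's master clock, and neighbouring hypothalamus were detected for 2 of 7. These were Vip, at 6.15 and 5.31 TPM in replicates 1 and 2, and Rgs16, at 2.51 and 2.15 TPM. Nms and Six6 had 0 counts in both libraries, and the summed level of the 7 markers was 9.33 and 8.88 TPM. Pineal markers were detected for 0 of 3, with a summed level of 0.71 and 0.75 TPM. Choroid plexus markers were detected for 2 of 4, with a summed level of 128 TPM in replicate 1 and 71.1 TPM in replicate 2. Most of that sum was Ttr, at 121 and 65.7 TPM. Kl, the other detected marker, stood at 4.51 and 4.09 TPM. The 3 blood markers were higher in replicate 2 (summed level 327 TPM in replicate 1, against 581). The summed level in replicates 1 and 2 was 2455 and 2397 TPM for the neuronal markers, 1161 and 1215 TPM for astrocyte, 805 and 894 TPM for oligodendrocyte, 79.9 and 74.3 TPM for microglial and 42.4 and 37.8 TPM for endothelial markers. The intervals did not overlap between libraries for 6 of 9 neuronal, 3 of 4 astrocyte and 2 of 4 oligodendrocyte markers. The same held for 0 of 4 microglial and 1 of 3 endothelial markers, beside 4.38% of all genes tested. Of these 6 neuronal genes, named after their values were seen, Prox1, Fibcd1 and Zbtb20 were higher in replicate 2. Snap25, Slc17a7 and Grik4 were higher in replicate 1. None of the neuronal, astrocyte, oligodendrocyte, microglial and endothelial markers differed by 0.5 or more on the log2 scale, beside 4.06% of all genes tested. Intervals of genes with many counts can separate at small ratios. Slc1a2, chosen after its values were seen, had a log2 ratio of 0.06 at 125556 and 136109 counts. Of the 7 factors, Nfil3 and Bhlhe40 were higher in replicate 1 by TPM and by counts in the gene tables, and Tef by TPM alone. The part of any of these cell types in the levels of the 7 factors was not tested.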

How the data were processed

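Per the labels, the 2 libraries were total RNA with spike-ins for stranded ribosomal-RNA-reduced libraries, and the assembly was mm10. The notes deposited beside the files name the M21 annotation. Aligner and quantifier are not given in the sources used here. Per the file headers, each library has a gene and a transcript table with an expected count, a TPM and an FPKM value in the layout of RSEM. Bounds of an interval around each TPM, recorded here as a score, are in the same deposited tables and are read as the 95% interval of that layout. Another transcript table was deposited that gives an estimated count and TPM as kallisto lays them out; this second quantification was summed here per gene.

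The 7 symbols were joined to the gene tables by identifier. Spike-in and tRNA entries were left out of library totals. After rounding to whole numbers, expected counts went into edgeR 4.0.16 (limma 3.58.1, R 4.3.3), which gave TMM factors and the common dispersion (low-count filter with a minimum of 10). Log2 ratios between the libraries used counts plus 0.5 over TMM-scaled totals, for genes at a mean of 1 CPM or more. No p-value was computed: there is no contrast of groups, and an exact test over 2 libraries cannot reach 0.05. For pairs of genes, the ratio within each library was averaged and set against 3 times its SD. The DESeq2 1.42.0 size factors were an alternative. The ratio calls were checked on simulated data with known changes, and the dispersion on simulated data without changes. Both simulations used a larger spread between libraries than was estimated here. The members and gene lists were chosen with earlier results of these data known. Named were all 7 genes, transcripts at 5% or more of their gene in either quantification, and of each list the 3 highest genes and any at 0 counts in both libraries. Ddit3, of the C/EBP list, is not analysed here. Sequences came from RefSeq (GRCm38.p6 promoters, of which 6 of the 7 genes matched) and the M21 transcripts.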

Additional observations from a re-analysis of the deposited data

How the results depend on the processing

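The order of the 7 levels was the same in the second quantification, in TPM over protein-coding genes alone, in posterior mean TPM, in FPKM, in each library alone and in counts per base of the leading transcript (the last added after seeing the data). Within a library, FPKM and TPM over protein-coding genes are TPM times a constant, so they could not change the order. None of the 7 genes was called apart under any scaling, pseudocount, minimum or fold tried, although at a minimum of 5 CPM only 6 of them were tested. The number of all genes called apart, 82, became 5649 with no filter on low counts, 18 at a minimum of 5 CPM and 629 at a log2 ratio of 0.5. It was 82 with DESeq2 size factors and with library totals, 84 with spike-in totals, 75 and 74 with pseudocounts of 0 and 2, and 72 in the second quantification. Spike-in totals moved the median of all genes to 0.04 on the log2 scale. Of the values given for single genes, pairs, transcripts and lists, 157 stayed within 1 SD of the reported value and 59 moved by more, with no change of direction. Leaving out 1 of 2 libraries always moves a mean by less than 1 SD. Changing the minimum CPM or the fold leaves a single gene's ratio as it was. Many of the 157 values could therefore not have moved, and their number does not measure how firm the results are. Nfil3 over Ciart was 0.78 in replicate 1 and 0.51 in replicate 2, and in the second quantification, at 0.22, did not pass 3 SD. The 110 to 122 counts of Ciart limit the resolution of its transcripts. No paired analysis was possible because there is 1 group and no contrast between groups.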
